A study of Mus musculus with 26 samples.

Results

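The CCN family of secreted matricellular proteins was followed through 6 groups of sorted reproductive-tract mesenchyme of the mouse. The members were the rows named Cyr61, Ctgf, Nov, Wisp1 and Wisp2 (current symbols Ccn1 to Ccn5), which are 5 of the 41442 gene rows of each RNA-seq table, and all 5 passed the filter on low counts in both tables. The family was taken up because Nov was among the genes lowest in Amhr2+ relative to Gli1+ cells of the uterus. For that reason the uterine values of the members are given below as a description, with no test. The comparisons of sex and age rest on fetal libraries, whose values did not enter that reason. The members and the rules were nevertheless set with earlier results of these data known. The sixth family gene, Wisp3, was outside the rule and is mentioned only where it passed a test.

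The mice carried Rosa-Tomato, a red fluorescent reporter that stays on after recombination, with either Gli1-CreER or Amhr2-Cre, and dams received 1 mg tamoxifen on E12.5 and E13.5 (days of embryonic development), per the labels. In Gli1-CreER embryos the reporter marks cells that transcribed Gli1, a hedgehog target gene, around the tamoxifen doses, and their descendants. Amhr2-Cre marks cells with a history of Amhr2, the receptor of anti-Müllerian hormone. Gli1+ cells were sorted from the mesonephros of female and male embryos at E14.5 and E16.5, with 3 RNA-seq libraries in each of the 4 groups. Amhr2+ and Gli1+ cells were sorted from the female neonatal uterus at E19.5, again with 3 libraries in each group. In addition, 8 ATAC-seq samples of fetal Gli1+ cells (sequencing of accessible chromatin) were represented by 1 unified list of peaks. All tissue was dissociated with an enzyme before sorting, and the labels do not say whether replicates came from separate litters or pools, so p-values measure the spread between these libraries.

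CCN proteins are released into the matrix around cells. They are built from an insulin-like growth factor binding domain, a von Willebrand factor repeat, a thrombospondin repeat and, except in Wisp2, a C-terminal cystine knot. They bind integrins and heparan sulfate proteoglycans and hold growth factors of the TGF-beta, BMP, VEGF and IGF families. Cyr61 and Ctgf are classical targets of the Hippo effectors YAP and TAZ, which act through TEAD factors, and both are also induced quickly by serum, stretch and TGF-beta. Nov is known as a growth-restraining member that can bind Notch1, Wisp1 was found as a gene induced by Wnt1, and Wisp2 is known for its response to oestrogen in the uterus and breast.

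The fetal libraries held 23382983 to 64602477 counts each and the uterine ones 28709191 to 37541045. Levels are given in CPM, counts scaled to a common library size, on which scale a count of 3 equals between 0.0464 and 0.128 in fetal libraries. Mesenchyme markers such as Col1a1 and Pdgfra summed to 36141 to 68823 CPM in fetal libraries, against 24.2 to 54.5 CPM for 10 epithelial and 69.3 to 131 CPM for 8 endothelial markers. Gli1 averaged 184 CPM in E14.5 females, 228 CPM in E14.5 males, 50.7 CPM in E16.5 females and 208 CPM in E16.5 males. In the uterus Gli1 averaged 17.9 CPM in Gli1+ and 10.5 CPM in Amhr2+ cells, and Amhr2 averaged 4.10 and 11.1 CPM, so each driver gene was higher in its own population (edgeR quasi-likelihood test, adjusted p = 0.0261 and 0.0124). All 5 sex-linked check genes, Xist and 4 Y-linked genes, differed between the sexes as labelled at both ages. Traces of the other sex were seen in both E14.5 replicate 3 libraries, with 899 Xist counts (16.2 CPM) in the male one against 16 and 39 in the other E14.5 males, and 60 Ddx3y counts (2.17 CPM) in the female one against 0 and 0. Results without each of these libraries are among the alternatives. E16.5 male replicate 1 stood apart in the immediate-early genes (Fos, Jun, Egr1 and 12 others), whose summed level was 4934 CPM there against 10811 to 25219.6 CPM in the other 11 fetal libraries. In the uterus Gli1+ replicate 2 was lowest, at 1317 CPM against 4454 to 15649 CPM in the other uterine libraries. Scaling by library size alone moved the split of called genes with age in males from 2340 higher and 1828 lower to 1847 higher and 2641 lower, and that in the uterus from 1642 higher and 2224 lower in Amhr2+ cells to 2849 higher and 1640 lower.

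Differences in level between family members were large. Per kilobase of exon (CPM divided by the length of the merged exons, between 1924 and 5565 bases), Cyr61 led every fetal group with means of 512 to 817 CPM per kb. Wisp1 followed at 15.97 to 24.7 and Ctgf at 4.74 to 10.1 CPM per kb, and no fetal library had Ctgf within the range of Wisp1. A row on the opposite strand overlaps Ctgf, and how reads shared by both were counted is not known. The Ctgf values per kb may therefore be too low, and its rank carries that limit. Nov and Wisp2 were at the bottom, with means of 0.0659 to 1.72 and 0.138 to 0.213 CPM per kb. In uterine cells Cyr61 was again first at 207 and 210 CPM per kb, but Ctgf reached 38.9 CPM per kb in Amhr2+ cells, above the 27.3 of Wisp1 with no overlap between libraries. In uterine Gli1+ cells Ctgf (23.5) and Wisp1 (26.7) overlapped. Nov lay below Wisp2 in all 3 E14.5 female libraries, overlapped it in males of both ages and in uterine Amhr2+ cells, and lay above it in E16.5 females and uterine Gli1+ cells. The uterine table was scaled by itself and came from a stranded kit, so levels are not compared across the tables.

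**Figure D1:**
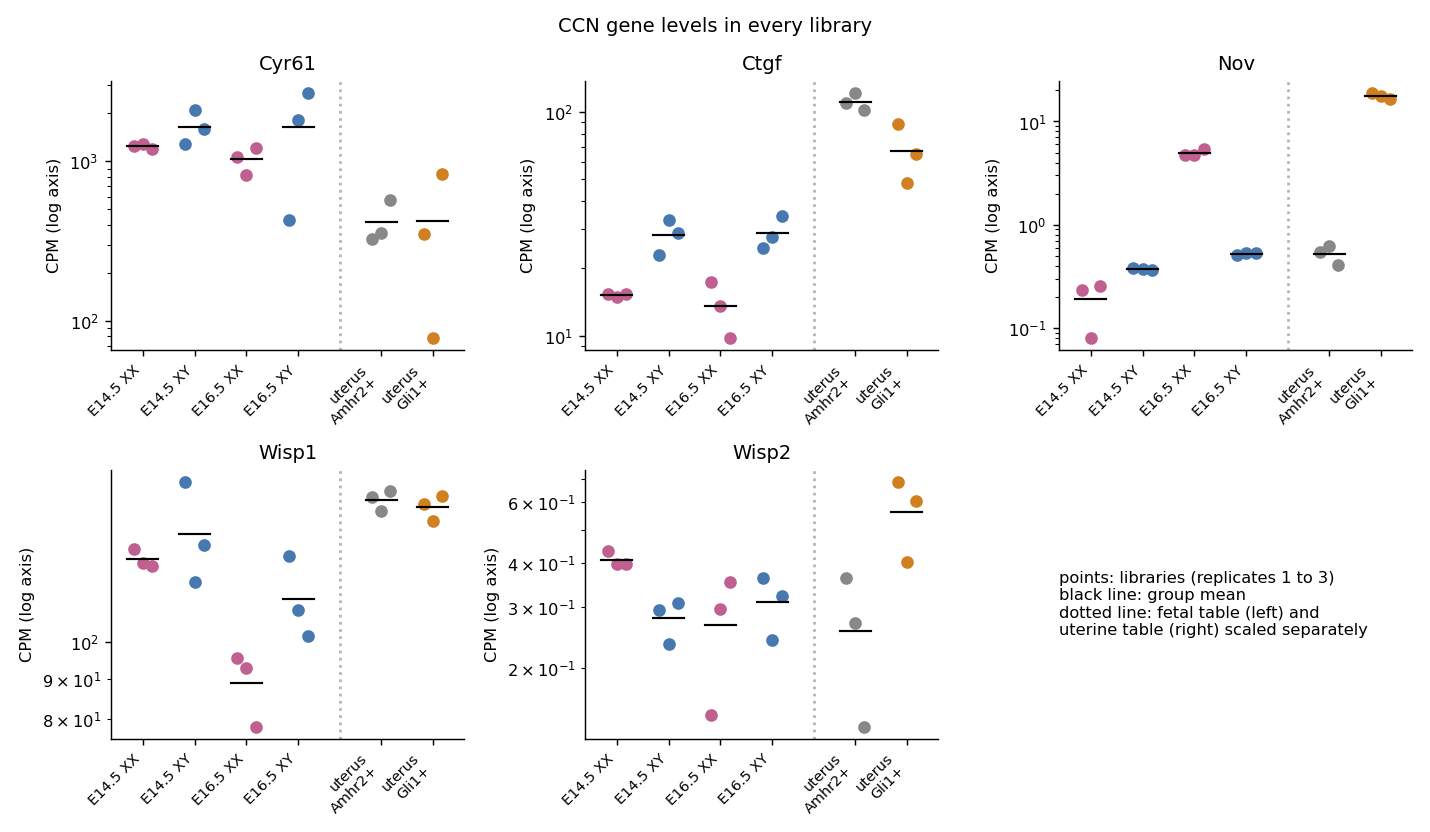
CPM levels of the 5 CCN genes in every library on log axes, with points for libraries, lines for group means and a dotted line between the fetal and the uterine table, which were scaled separately. Nov rises from at most 0.253 CPM in E14.5 females to 4.70 to 5.38 CPM in E16.5 females, and Cyr61 spreads from 432 to 2667 CPM among the 3 E16.5 male libraries.

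Gene positions are those of mm10 (GRCm38). Cyr61 lies at chr3:145646976-145649981 on the minus strand, Ctgf at chr10:24595442-24598683, Nov at chr15:54745702-54754039, Wisp1 at chr15:66891320-66923201 and Wisp2 at chr2:163820889-163833146, all on the plus strand. Accessible regions of the fetal Gli1+ cells were found within 1 kb of an annotated start for 4 of the 5 members, against 65.6% of 21924 protein-coding genes. The peaks of Cyr61 (474 bp), Ctgf (668 bp) and Wisp1 (400 bp) covered the start site and ran into the first exon. Nov had a pair of narrow peaks that left the start itself uncovered, one of 89 bp from 268 to 180 bases before the start and one of 134 bp from 175 to 308 bases after it, in an exon. Wisp2 had no peak within 1 kb. Its nearest was an intron peak of 370 bp that began 2842 bases after the start. Cyr61 had 3 further peaks within 5 kb of its start, and Wisp1 had peaks 2551 and 7419 bases upstream and 2 more in introns, the first of them 8241 bases downstream. The list names no sample, so accessibility was not compared between sexes or ages.

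**Figure D2:**
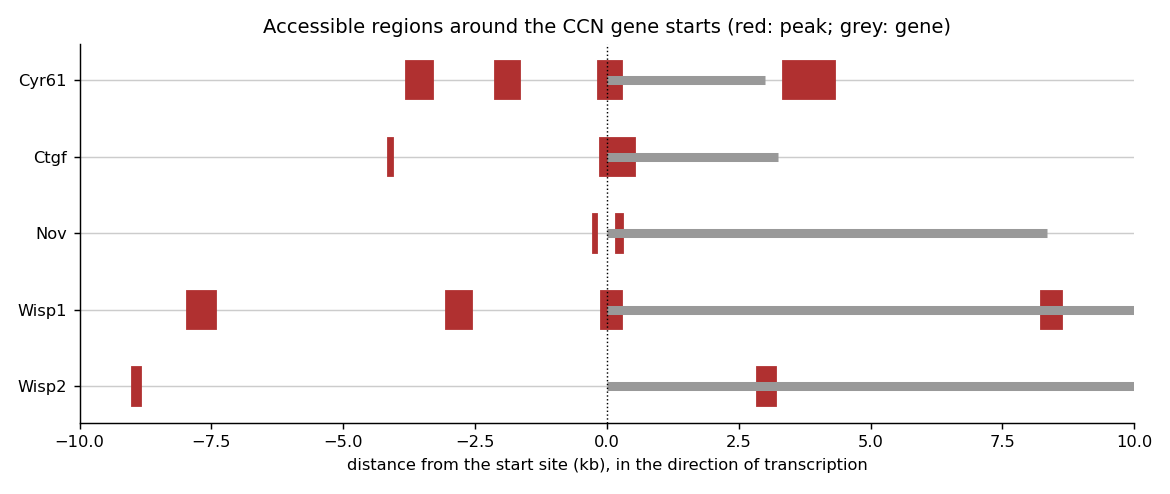
Accessible regions (red) around the start sites of the 5 CCN genes, with distance from the start in kb along the direction of transcription and the gene body in grey. Cyr61, Ctgf and Wisp1 have a peak across the start, Nov has one on either side of it, and the nearest peak of Wisp2 lies in an intron.

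The open stretches just upstream of the start sites are shown because they differ in the hexamer that TEAD factors bind. Cyr61 is shown by the RefSeq promoter entry of GRCm38.p6, 250 bases before the RefSeq start, and the other 3 by the accessible bases upstream of the start, read from the same assembly. All run 5′ to 3′ on the strand of the gene, and capitals mark GGAATG or its complement CATTCC.
Cyr61, chr3:145649986-145650235, minus strand: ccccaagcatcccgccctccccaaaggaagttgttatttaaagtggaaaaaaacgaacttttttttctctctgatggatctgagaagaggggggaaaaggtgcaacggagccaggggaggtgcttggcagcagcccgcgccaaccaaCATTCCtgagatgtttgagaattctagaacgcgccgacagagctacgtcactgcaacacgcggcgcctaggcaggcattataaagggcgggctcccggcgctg
Ctgf, chr10:24595308-24595441, plus strand: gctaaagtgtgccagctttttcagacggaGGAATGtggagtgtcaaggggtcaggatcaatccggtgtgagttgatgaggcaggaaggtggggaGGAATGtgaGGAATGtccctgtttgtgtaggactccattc
Nov, chr15:54745434-54745522, plus strand: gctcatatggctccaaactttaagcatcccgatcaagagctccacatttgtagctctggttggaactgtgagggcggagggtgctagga
Wisp1, chr15:66891215-66891319, plus strand: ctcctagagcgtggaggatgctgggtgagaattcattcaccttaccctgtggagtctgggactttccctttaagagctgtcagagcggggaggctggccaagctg

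The Ctgf stretch of 134 bases held 3 copies of GGAATG, beginning 105, 40 and 31 bases before the start. Among windows of that length centred on 70999 accessible regions, 9.79% held at least 1 copy on either strand and 0.0324% (23 windows) held 3 or more. The Cyr61 promoter held 1 copy, on the strand opposite to the gene, 103 bases before the start, and 12.6% of the 32851 RefSeq promoter windows of 250 bases held one. In the Nov peak of 89 bases and the Wisp1 stretch of 105 bases these letters were not found, and 6.74% and 7.83% of accessible windows of those lengths held them. Searches on both strands for the AP-1 motif TGANTCA, the GLI motif GACCACCCA and the CArG box found no match in any of the 4 stretches. In the promoter windows these motifs occurred in 6.75%, 0.225% and 1.47%, and in accessible windows of 134 bases in 4.09%, 0.223% and 0.906%, in that order. Among 14 genes of a published YAP/TAZ target signature with a promoter entry, 5 (Amotl2, Ankrd1, Axl, Crim1 and Ptpn14) held GGAATG on either strand in at least 1 entry. This count is per gene, so it cannot be set against the 12.6% of promoter windows, and no share per gene was taken over all genes. A match describes the letters and does not show binding.

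Nov changed most among the 5 members. In E16.5 females its level was 4.75, 4.70 and 5.38 CPM in replicates 1 to 3, from 194, 191 and 213 counts. In E14.5 females it was 0.234, 0.0796 and 0.253 CPM, from 7, 2 and 7 counts. Male levels were 0.379, 0.375 and 0.361 CPM at E14.5 and 0.508, 0.534 and 0.533 CPM at E16.5. The 3 E16.5 female libraries therefore stood above all other fetal libraries, the other 9 all lay at or below 0.534 CPM, and E14.5 females were the lowest group without overlap. From E14.5 to E16.5 Nov rose in females by 4.66 ± 0.257 (SE) on the log2 scale (adjusted p = 2.57e-09, edgeR quasi-likelihood test, Benjamini-Hochberg over 17858 genes). The ratio of summed levels was 25.5 with an exact 95% interval of 15.6 to 45, which covers counting error only. In males the change with age was 0.50 ± 0.256 on the log2 scale (adjusted p = 0.177). In bulk libraries a change in the share of cells that express a gene and a change in RNA per cell cannot be told apart.

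At E16.5 Nov was higher in females than in males by 3.23 ± 0.204 on the log2 scale (adjusted p = 1.36e-08), a ratio of summed levels of 9.39 (95% interval 7.37 to 12.1). At E14.5 the difference lay the other way, with females at −0.93 ± 0.337 relative to males (adjusted p = 0.163), and rested on 16 counts in females and 45 in males. The interaction of sex and age, which tests whether the sex difference changed between the ages, was 4.15 ± 0.386 for Nov (adjusted p = 4.93e-06), where 10% of all genes tested were called (4.66% upwards, 5.36% downwards) and 1 of the 5 members was. Over all processing alternatives the female rise with age stayed between 4.33 and 4.90 and the interaction between 3.83 and 4.40 on the log2 scale, and neither lost its call. Several other measures moved with the same contrast. Gli1 itself was lower in E16.5 females than in males by 2.04 ± 0.0712 on the log2 scale (adjusted p = 3.53e-11), 4 of 7 immune markers were higher in females with summed levels of 30.0 to 75.1 CPM against 13.4 to 47.3 CPM, and 7 of 8 smooth muscle markers were lower. Their part in the Nov difference was not tested.

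In the uterus, the contrast that drew attention to the family, Nov was at 18.8, 17.7 and 16.6 CPM in Gli1+ cells and at 0.544, 0.620 and 0.407 CPM in Amhr2+ cells. The counts behind these levels were 630, 573 and 550 against 21, 23 and 12. The level in Amhr2+ cells was thus 5.05 lower on the log2 scale, and the ratio of summed levels was 33.2. Both are descriptions, since Nov was taken up for its low level in these cells. No library of one population came near the other. Over all genes 23.9% were called between the populations, 10.1% higher and 13.7% lower in Amhr2+ cells. In Gli1+ uterine cells 5 germ cell markers summed to 5.28 to 6.53 CPM, nearly all Ddx4, and in Amhr2+ cells to 0.475 to 0.944 CPM. Mesenchyme markers summed to 57801 to 65164 CPM in Gli1+ and 27699.9 to 29718 CPM in Amhr2+ cells. Their part in the difference was not tested.

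Ctgf was the member with a sex difference at both ages. In females its level was 15.3, 14.97 and 15.3 CPM at E14.5 and 17.3, 13.6 and 9.75 CPM at E16.5. In males it was 22.8, 33.0 and 28.8 CPM at E14.5 and 24.7, 27.7 and 34.2 CPM at E16.5. All 6 male libraries lay above all 6 female libraries. At E16.5 females were lower by 1.09 ± 0.191 on the log2 scale (adjusted p = 0.00107). At E14.5 they were lower by 0.90 ± 0.194 (adjusted p = 0.0163), and Ctgf was the 1 member of 5 called there, where 6.28% of genes tested were called (2.59% higher and 3.69% lower in females). The E14.5 call was lost without E14.5 female replicate 1, 2 or 3 or E14.5 male replicate 2 or 3 (adjusted p between 0.0660 and 0.0690) and without the filter on low counts (0.0661), with log2 values from −0.90 to −0.77.

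With age, Ctgf differed little in either sex, by −0.16 ± 0.197 in females and 0.03 ± 0.185 in males (adjusted p = 0.539 and 0.936), and the sign of both values turned under some alternatives. The sex difference did not differ detectably between the ages, with an interaction of −0.19 ± 0.270 (adjusted p = 0.734). Smooth muscle markers moved in the same direction as Ctgf between the sexes: their summed level was 725 to 737 CPM in E14.5 females, 1075 to 1369 CPM in E14.5 males, 866 to 942 CPM in E16.5 females and 2322 to 3606 CPM in E16.5 males, with 4 of 8 and 7 of 8 markers lower in females. At E16.5 mesothelium markers moved the same way, with sums of 20.8 to 46.02 CPM in females and 46.7 to 62.5 CPM in males and 4 of 6 lower in females. Their part in the Ctgf difference was not tested. In the uterus Ctgf was higher in Amhr2+ cells, at 110.03, 121 and 102 CPM against 88.4, 48.4 and 64.7 CPM in Gli1+ cells, a log2 difference of 0.73 ± 0.203 without overlap. Over the alternatives this uterine difference ranged from 0.54 to 0.98. The lowest Gli1+ value was that of replicate 2, the library with the lowest immediate-early level. Smooth muscle markers there went the other way, at 1754 to 2496 CPM in Amhr2+ and 3003 to 3152 CPM in Gli1+ cells, while epithelial markers moved with Ctgf, at 74.7 to 77.3 CPM in Amhr2+ and 34.7 to 47.8 CPM in Gli1+ cells with 4 of 9 higher in Amhr2+ cells. The part of either in the uterine difference was not tested. An antisense row, RP23-234P12.1, overlaps Ctgf on the opposite strand and reached at most 41 counts in a fetal and 233 in a uterine library. Reads that overlap both rows may be lost to Ctgf in the counting, and the use of strand in counting is not given in the sources used here. Fetal libraries were not stranded and uterine ones were, so such a loss could differ between them.

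Cyr61 was the highest member and the one that varied most among replicates in males. Female levels were 1249.7, 1278 and 1197 CPM at E14.5 and 1069, 823 and 1211 CPM at E16.5. Male levels were 1275, 2087 and 1588 CPM at E14.5 and 432, 1821 and 2667 CPM at E16.5. The highest E16.5 male library was 6.18 times the lowest, whereas the 3 E14.5 female libraries differed by 1.07 times. No comparison of Cyr61 passed the test: females differed from males by −0.41 ± 0.534 at E14.5 and −0.67 ± 0.536 at E16.5 (adjusted p = 0.759 and 0.420), and E16.5 from E14.5 by −0.26 ± 0.534 in females and −0.01 ± 0.533 in males (adjusted p = 0.730 and 0.992).

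The call at E16.5 turned on single male libraries. Without E16.5 male replicate 1 the sex difference was −1.12 (adjusted p = 0.00625), and without replicate 3 it was −0.14 (adjusted p = 0.900). Replicates 1 and 3 were also the lowest and the highest fetal libraries for the immediate-early genes, with mean log2 CPM over 15 genes of 7.24 and 9.71. Over the 12 fetal libraries Cyr61 and that mean had a Pearson correlation of 0.836 and a Spearman correlation of 0.545, and without these 2 libraries the Pearson correlation was 0.371. The libraries share the table, its scaling and their groups, so the correlation is a description. For Nov the same values were 0.284, 0.559 and 0.521, and for Wisp1 −0.524, −0.601 and −0.647. For Ctgf they were 0.0551, 0.336 and 0.0014. The order of the members thus depended on the measure, and these values mix differences between groups with those between replicates. Within E14.5 males, E16.5 females and E16.5 males the 3 libraries had the same order for Cyr61 and the immediate-early mean. Within E14.5 females they did not. With the immediate-early mean as a covariate, Cyr61 was lower in E16.5 females than males by 0.69 on the log2 scale (adjusted p = 7.01e-05), fell with age in females by 0.78 (2.43e-05) and had an interaction of −0.71 (0.00648). Cyr61 is itself an early response gene, and the part of the immediate-early level in its differences was not tested beyond these fits. In the uterus Cyr61 was at 326, 354 and 573 CPM in Amhr2+ and at 353, 78.0 and 839 CPM in Gli1+ cells, overlapping widely. Gli1+ replicates 2 and 3, its lowest and highest uterine libraries, were also lowest and highest for the immediate-early genes, with sums of 1317 and 15649 CPM.

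**Figure D3:**
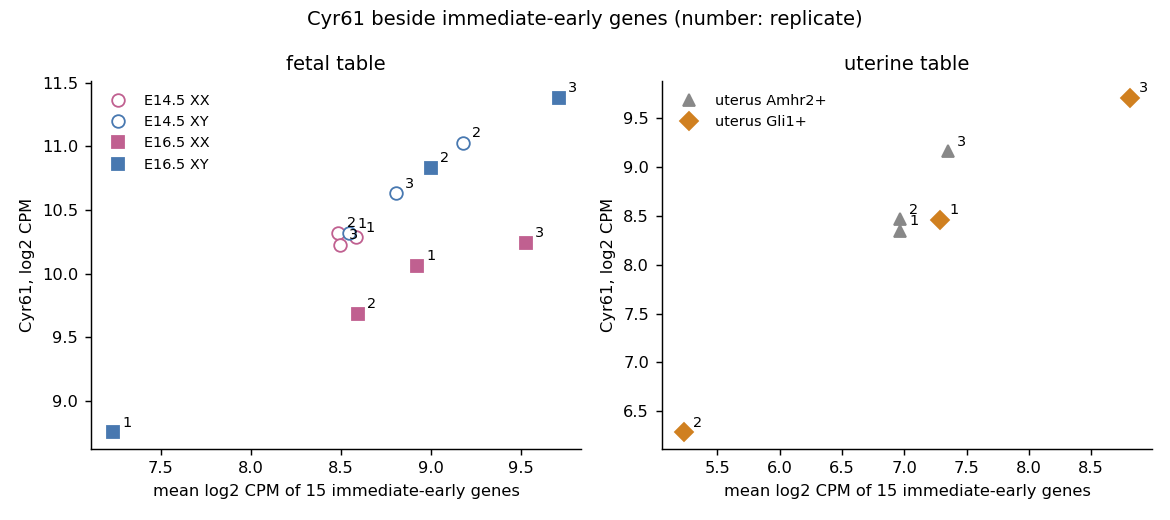
Cyr61 (log2 CPM) against the mean log2 CPM of 15 immediate-early genes in each library, with the fetal table on the left, the uterine table on the right and the replicate number beside each point. E16.5 male replicate 1 lies lowest on both axes at 7.24 and 8.75, and at similar immediate-early levels the E16.5 females lie below the males.

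Wisp1 fell with age in females. Its level was 131, 126 and 125 CPM in E14.5 females and 95.6, 92.9 and 78.2 CPM in E16.5 females, a log2 change of −0.52 ± 0.108 (adjusted p = 0.00162) without overlap. In females 2 of the 5 members were called with age, Nov upwards and Wisp1 downwards, where 39.6% of all genes tested were called (21% upwards, 18.6% downwards), and the excluded sixth gene Wisp3 fell as well, by 0.54 ± 0.202 (adjusted p = 0.0452). Male Wisp1 levels were 159.7, 119 and 133 CPM at E14.5 and 129, 110.1 and 102 CPM at E16.5, a change of −0.27 ± 0.107 (adjusted p = 0.0830). None of the 5 members was called with age in males, where 23.3% of genes were called (13.1% upwards, 10.2% downwards). At an unadjusted p under 0.05 the count in males was 1 (Wisp1), and DESeq2 also called 0. Wisp1 passed in males without E14.5 male replicate 2 (adjusted p = 0.0291), without E16.5 male replicate 1 (0.0229) and with the immediate-early covariate (0.00547).

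Between the sexes Wisp1 was lower in females at E16.5 by 0.35 ± 0.108 on the log2 scale (adjusted p = 0.0241), and at E14.5 the value was −0.10 ± 0.108 (adjusted p = 0.671). The E16.5 call was lost without E16.5 female replicate 3 (−0.27, adjusted p = 0.0939) or E16.5 male replicate 1 (−0.26, adjusted p = 0.0826). With Ctgf and Nov it made 3 of 5 members called at E16.5, 1 higher and 2 lower in females, beside 27.3% of all genes tested (13.2% higher, 14.1% lower). The interaction for Wisp1 was −0.25 ± 0.152 (adjusted p = 0.359). In the uterus its level was nearly the same in both populations, at 153, 147 and 156 CPM in Amhr2+ and 149.7, 143 and 153 CPM in Gli1+ cells (log2 difference 0.03 ± 0.057).

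Wisp2 was near the limit of detection, with 6 to 20 counts per fetal library. Its group means were 0.410 CPM in E14.5 females, 0.279 CPM in E14.5 males, 0.265 CPM in E16.5 females and 0.309 CPM in E16.5 males, and no comparison passed the test (adjusted p between 0.187 and 0.787). At E14.5 the 3 female libraries, at 0.434, 0.398 and 0.398 CPM, lay above the 3 male libraries, at 0.295, 0.235 and 0.307 CPM, but the difference of 0.56 ± 0.363 had an adjusted p of 0.456. In the uterus 14, 10 and 4 counts in Amhr2+ libraries and 23, 13 and 20 in Gli1+ libraries gave means of 0.256 and 0.564 CPM, without overlap in CPM.

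**Figure D4:**
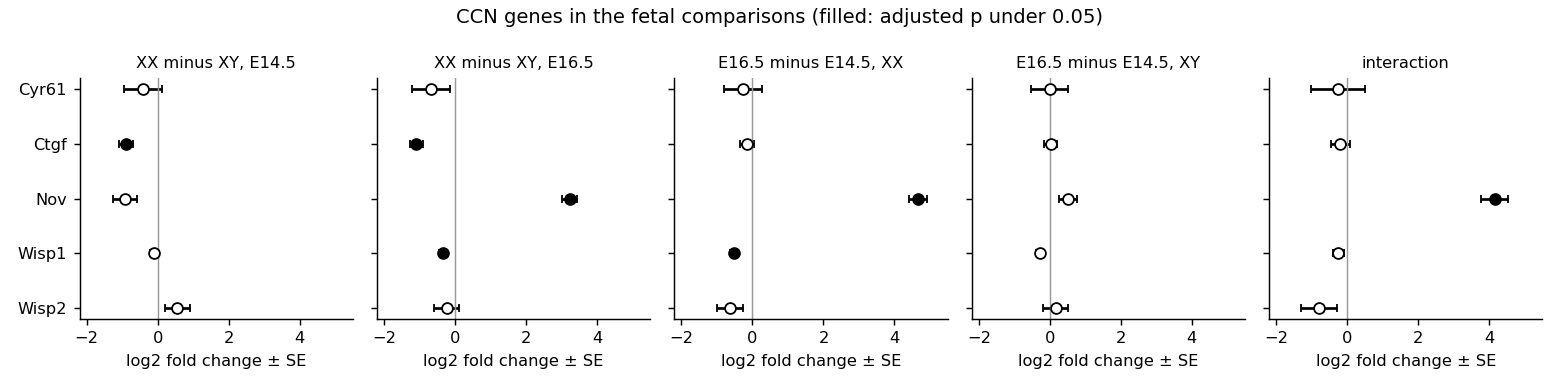
Log2 fold changes ± SE of the 5 CCN genes in the 5 fetal comparisons, with filled points where the adjusted p was under 0.05. Nov lies far to the right in the E16.5 sex difference (3.23), the age difference in females (4.66) and the interaction (4.15), while Ctgf is lower in females at both ages.

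Counted by groups that did not overlap, 3 of 5 members separated the sexes at E14.5 (27.2% of all genes tested) and 3 at E16.5 (38.3%). The ages were separated by 3 in females (56.6%) and 1 in males (34.9%). The uterine populations were separated by 3 (44.4%), among them Nov, which had been picked for its low level in Amhr2+ cells.

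The genes most like each member over the 12 fetal libraries were named by the Pearson correlation of log2 CPM among 10457 genes that reached 10 CPM in some group. Their fetal levels are a description, since they were picked on them. For Nov they included Zfp804a (r = 0.984), a zinc finger gene, and Rspo2 (0.978), a secreted amplifier of Wnt signals. Zfp804a averaged 30.9 CPM in E16.5 females and at most 6.84 CPM in the other fetal groups, and Rspo2 15.9 CPM against at most 1.34. Both shared the order of Nov, with E14.5 females lowest and E16.5 females highest. The uterine libraries had no part in that choice. There Zfp804a was lower in Amhr2+ cells by 0.80 ± 0.175 on the log2 scale (adjusted p = 0.0131) and Rspo2 differed by −0.10 ± 0.170 (adjusted p = 0.714).

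**Figure D5:**
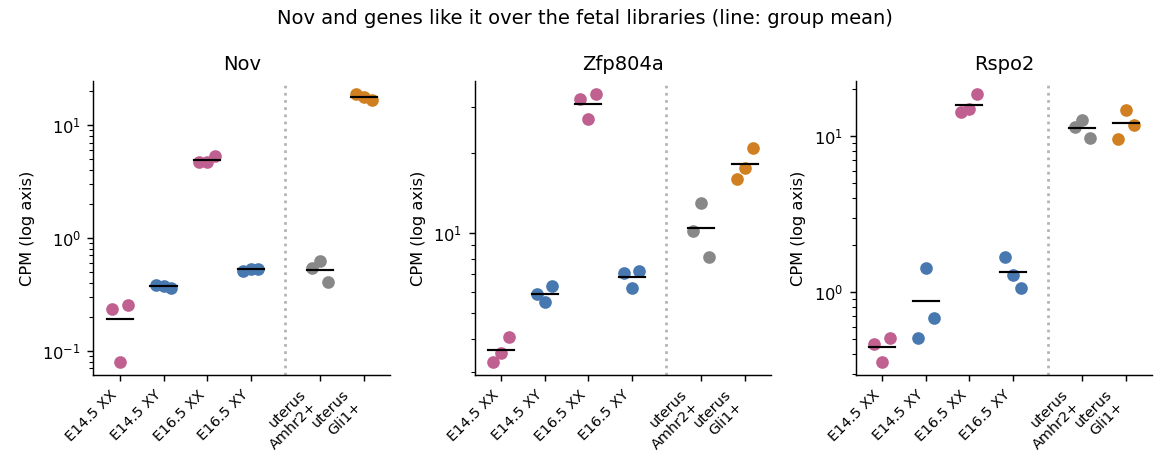
CPM levels (log axes) of Nov, Zfp804a and Rspo2, with points for libraries and lines for group means. All 3 are highest in E16.5 females among fetal groups, whereas in the uterus Rspo2 is at similar levels in both populations (11.2 and 12.04 CPM).

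Over the 6 uterine libraries the genes most like Nov were Slc14a1, a urea transporter, Dgkb, a diacylglycerol kinase, and Pappa, a protease that cleaves IGF binding proteins, each with r = 0.999. Their levels in Gli1+ and Amhr2+ cells were 12.4 and 3.44, 14.1 and 1.44, and 46.7 and 8.84 CPM. In the fetal libraries Slc14a1 rose with age in females by 3.91 ± 0.204 and had an interaction of 2.72 ± 0.266 (adjusted p = 1.48e-09 and 7.89e-06). It was lower in E14.5 females than males by 2.15 ± 0.215 (1.81e-05) and higher in E16.5 females by 0.57 ± 0.154 (0.0121). The larger part of its interaction thus lay at E14.5, unlike that of Nov. It also rose with age in males, by 1.195 ± 0.163 (5.61e-05). Dgkb was higher in females by 0.64 ± 0.116 at E14.5 and 0.71 ± 0.115 at E16.5 (adjusted p = 0.00330 and 0.000257). With age Dgkb differed in females by −0.27 ± 0.114 (0.0694) and fell in males by 0.34 ± 0.117 (0.0463). Pappa rose with age in both sexes, by 0.60 ± 0.123 and 0.58 ± 0.123 (0.00139 and 0.00262). The interaction values of Dgkb and Pappa were 0.07 ± 0.163 and 0.01 ± 0.174, neither called.

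Cyr61 was closest to Actg1 (r = 0.965), Ccdc186 (0.960) and Actb (0.932), of which Actg1 and Actb encode cytoplasmic actins. Ctgf was closest to Heyl (0.967), a Notch target found in vascular mural cells, Fdft1 (0.949), a cholesterol synthesis enzyme, and Mta3 (0.937). In the uterus Heyl went against Ctgf and was lower in Amhr2+ cells by 1.34 ± 0.159 (adjusted p = 0.000906), while Fdft1 and Mta3 did not pass the test (0.16 ± 0.189 and −0.10 ± 0.077). Wisp1 was closest to Wnt5b (0.938), a Wnt ligand, to the carboxypeptidase M gene (0.937) and to Myo1d (0.933), an unconventional myosin. In the uterus, where Wisp1 was level, Wnt5b was lower in Amhr2+ cells by 0.54 ± 0.089 (adjusted p = 0.00350) and Myo1d higher by 0.48 ± 0.104 (0.0129). For Wisp2 the closest were Ssna1 (0.859), Uba1 (0.818) and Eif3d (0.809), at 6 to 20 counts of Wisp2 per library.

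Genes around the family were read from lists that do not contain the members. Of 19 tested genes of the YAP/TAZ signature to which Cyr61 and Ctgf are usually added, 3 were higher and 6 lower in females at E16.5, where 27.3% of all genes were called, with a median log2 difference of −0.12 beside 0.01 over all genes. The largest were Nt5e, the ecto-enzyme CD73 (−3.65 ± 0.263, adjusted p = 5.35e-08), the kinase Nuak2 (−1.57 ± 0.181, 7.87e-06), Ccdc80 (0.90 ± 0.076, 2.98e-07) and Igfbp3 (0.64 ± 0.204, 0.0410). With age 4 rose and 7 fell in females (39.6% of all genes called), and 3 rose and 2 fell in males (23.3%; 3 and 5 with library size alone). Igfbp3 fell in both sexes, from 915 to 195 CPM in females and from 560.2 to 125 CPM in males, and Amotl2 fell by 1.19 ± 0.184 and 1.06 ± 0.183. Among 16 genes of the Hippo core and TEAD factors 1 was higher and 4 were lower in females at E16.5, and 1 rose and 6 fell with age in females, shares near the 27.3% and 39.6% of all genes called. Without E16.5 female replicate 1 the 4 lower genes became 2. Tead4 fell in both sexes, from 1.84 to 0.651 CPM in females and from 1.90 to 1.11 CPM in males.

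Among the receptors of CCN proteins 11 of 13 were tested. At E16.5, where Nov was high in females, its partner Notch1 was higher in females by 0.83 ± 0.078 on the log2 scale (106 against 59.8 CPM, adjusted p = 9.23e-07), and its interaction was 0.57 ± 0.109 (adjusted p = 0.00280). Other fetal comparisons differed between Notch1 and Nov. At E14.5 Notch1 averaged 97.3 CPM in females and 81.6 CPM in males and was not called, while Nov lay lower in females. In males Notch1 fell with age by 0.45 ± 0.078 (edgeR adjusted p = 0.000528), while the Nov value was upwards and not called. In females Notch1 was not called with age, while Nov rose. Itgb1, the shared beta chain of many CCN-binding integrins, was lower in E16.5 females by 0.40 ± 0.072 (659 against 868 CPM), as was the laminin receptor chain Itga6 by 0.43 ± 0.107. In total, 3 receptors were higher and 4 lower in females at E16.5, beside 13.2% and 14.1% of all genes. Itgb3 rose with age in both sexes, by 0.61 ± 0.099 and 0.66 ± 0.097, and the Wnt co-receptor Lrp6 fell in both, by 0.33 ± 0.095 and 0.29 ± 0.095. In the uterus, where Nov was low in Amhr2+ cells, Notch1 was lower there by 0.36 ± 0.105 (adjusted p = 0.0369) and Itga6 higher by 0.86 ± 0.104 (0.000762). These were the only receptors called there. Over the alternatives the number called lower was 0 to 1 and the number called higher 1 to 2, so the Notch1 call was not stable.

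Of 10 growth factors that CCN proteins bind, 4 were higher and 4 lower in females at E16.5, beside the same 13.2% and 14.1% of all genes. Bmp4 reached 11.7 CPM in females against 65.0 CPM in males (−2.47 ± 0.151, adjusted p = 4.93e-08), while Bmp7 (1.18 ± 0.125) and Igf1 (1.02 ± 0.080) were higher in females. Igf1 rose with age in females from 235 to 718 CPM (adjusted p = 1.08e-09), and Tgfb3 rose in both sexes (0.70 ± 0.069 and 0.84 ± 0.068). Of 8 TGF-beta response genes, Ltbp2 was lower in females at both ages (−1.60 ± 0.105 and −2.12 ± 0.089), the direction of Ctgf, and Tgfbi was higher at both (0.81 ± 0.114 and 1.79 ± 0.116). Of 11 Wnt feedback genes 10 fell with age in females and 8 in males, where 18.6% and 10.2% of all genes fell, with medians of −0.59 and −0.51 beside 0.00 and −0.01 over all genes. Notum, a secreted Wnt inactivator, fell by 2.30 ± 0.131 in females and 1.21 ± 0.127 in males. In the uterus 6 of 9 tested Wnt feedback genes were higher in Amhr2+ cells, beside 10.1% of all genes, with Tcf7 at 40.4 against 23.8 CPM (adjusted p = 0.00296). Without Amhr2+ replicate 1 the count was 3, and over the other alternatives it was 5 to 7. Of 15 immediate-early genes, Jun alone was called, rising with age in females by 1.39 ± 0.421 (adjusted p = 0.0302). There 39.6% of all genes were called, and the median log2 change of the list was 0.77. The count was unstable, with 0 to 6 higher and 0 to 4 lower in that comparison over the alternatives.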

How the data were processed

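Gene counts of 12 fetal and 6 uterine RNA-seq libraries and 1 list of 71040 accessible regions from 8 ATAC-seq samples were deposited by the authors. Per the submitters' processing notes, reads were handled with STAR 2.5 and Subread 1.5.0-p1 (featureCounts) for RNA, with Bowtie 1.2, SAMtools 1.3.1, Picard, bedtools 2.24.0 and MACS2 2.1.1 also named, on mm10. Per the labels, fetal RNA libraries were not stranded and uterine ones were. The deposited counts were whole numbers, and 64 repeated symbols were kept apart by row. The peak list gave positions only, so peaks were described and not tested.

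Here counts were fitted with edgeR 4.0.16 in R 4.3.3 (TMM scaling, filterByExpr, robust quasi-likelihood test, Benjamini-Hochberg adjustment, threshold 0.05), with 1 model for the 12 fetal libraries (17858 genes tested) and another for the 6 uterine ones (16195). DESeq2 1.42.0, other scalings, no filter, an immediate-early covariate, a replicate block and leaving out each library were alternatives. CPM used the scaled library size, and log2 CPM a prior count of 2. SE is the log2 value divided by the square root of the F statistic. The procedure was tested on simulated data for the E16.5 sex difference and the uterine comparison. It recovered 69.4% and 82.8% of log2 changes of 1, and 94% and 96.9% of log2 changes of 2. False calls made up 6.36% and 10.6% of all calls at the threshold of 0.05. Interval and floor values cover counting error only.

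Genes named were the members, up to 2 called genes per direction in each list and comparison, and the 3 genes most correlated with each member over the fetal libraries (for Nov also over the uterine ones), among genes whose highest group mean reached 10 CPM; 1 gene so chosen for Nov is not reported here. Driver and sex-linked genes served as checks. The members, the lists and these rules were chosen with earlier results of these data known. Replicate numbers are shared across groups. Deviations of same-numbered E16.5 female and male libraries correlated at 0.28, 0.11 and 0.40, all over the limit of 0.1. The numbers were therefore taken to pair the sexes at E16.5. In the uterus replicates 1 to 3 correlated at 0.0018, 0.22 and 0.24, with replicate 1 under the limit. At E14.5 and between the ages no value passed it. The main tests took no account of pairing, and the replicate block was an alternative only. Exon lengths came from GENCODE annotation and sequences from RefSeq, both on GRCm38.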

Additional observations from a re-analysis of the deposited data

Results flagged for a closer look

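Each of the following had a sex difference that changed between E14.5 and E16.5 by the interaction test in 1 model of the 12 fetal libraries (edgeR, adjusted p between 4.93e-06 for Nov and 0.0241 for Ltbp2). Values are the female minus male log2 difference at E16.5 less that at E14.5. Among the CCN genes it was Nov alone, at 4.15. Among YAP/TAZ targets Dock5 (0.72) and Ccdc80 (0.50) moved towards females, and the ecto-enzyme gene Nt5e (-3.25) and the kinase gene Nuak2 (-1.03) towards males. Of the Hippo genes, Vgll3 was at -0.92 and Lats2 at -0.46. Among receptors of CCN proteins, Notch1 was at 0.57, Itga6 at -0.78 and Itgav at -0.51. Growth factor genes went both ways, with Bmp7 at 1.19, Bmp2 at 1.00 and Bmp4 at -1.73. The TGF-beta response genes Tgfbi (0.98) and Fn1 (0.56) moved towards females and Ltbp2 (-0.52) towards males. Of the Wnt feedback genes, Notum was at -1.08 and Tcf7 at -0.86. No test for single outlying libraries was run on these groups of 3.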

How the results depend on the processing

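Nov (sex at E16.5, age in females, interaction), Ctgf at E16.5 and Wisp1 with age in females kept direction and call under every alternative run: the E16.5 sex difference stayed at 3.16 to 3.25 for Nov and -1.32 to -0.90 for Ctgf, and the Wisp1 age change at -0.57 to -0.44. Members called at E14.5 went from 1 to 0 without the low-count filter and with the replicate block, where Ctgf had an adjusted p of 0.126. With age in males they went from 0 to 1 (Wisp1) with the immediate-early covariate and with the block. For the interaction the covariate gave 2984 genes and 2 members, the second being Cyr61, against 1790 and 1. With the replicate block the genes called were 1581 at E14.5 (1121 without it), 5901 at E16.5 (4883), 2592 for the interaction (1790), 6255 and 3463 with age in females and males (7068 and 4168) and 4725 in the uterus (3866). At E16.5, where the numbers were taken to pair the sexes, the block changed no member's call. At E14.5 every library correlated best with its own number, although no value passed 0.1. Leaving out 1 library gave 553 to 1678 genes and 0 to 1 members at E14.5, 3618 to 5745 and 2 to 3 at E16.5, 5249 to 7729 and 2 with age in females, 3364 to 4238 and 0 to 1 in males, 1335 to 2687 and 1 for the interaction (2687 without E16.5 male replicate 1), and 1949 (without Amhr2+ replicate 1) to 3521 in the uterus, with 2521 without Gli1+ replicate 1. Signs turned for values that had missed the threshold (adjusted p of 0.539 or more). Ctgf with age in males was -0.033 with library size alone, -0.097 without E14.5 male replicate 1 and -0.10 without E16.5 male replicate 3, with a range over left-out libraries up to 0.15, and in females it ranged from -0.38 to 0.025, positive only without E16.5 female replicate 3. Cyr61 with age in males was 0.0012 with relative log expression factors, 0.0032 with DESeq2, 0.016 with no filter, and 0.20, 0.0075, 0.0077 and 0.44 without E14.5 male replicate 2, E16.5 female replicates 1 and 2 and E16.5 male replicate 1, and its lowest value was -0.54 without E16.5 male replicate 3. The Cyr61 interaction ranged from -0.71 to 0.27 (without E16.5 male replicates 1 and 3) and was 0.011 with the block. Wisp1 at E14.5 ranged from -0.20 to 0.016, positive without E14.5 male replicate 1, and Wisp2 at E16.5 from -0.49 to 0.050, positive without E16.5 female replicate 1. In uterine libraries Cyr61 ranged from -0.52 to 0.95 and Nov from -5.18 to -4.92. Peaks covered the start of 3 members, lay within 1 kb for 4 and within 5 kb for 5. Counts of 2 to 33 limit Nov in the low groups, and 4 to 23 limit Wisp2. The causes of these changes were not tested.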
